A study of Oryctolagus cuniculus with 4 samples.

Results

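The genes described here write, read, remove or protect DNA methylation: the methyltransferases DNMT1, DNMT3A, DNMT3B and DNMT3L, the dioxygenases TET1, TET2 and TET3, and the imprint maintenance factors UHRF1, TRIM28 and ZFP57. A probe belonged to one of these 10 genes when the symbol, accession or description in the array files named it. By this rule 4 of the 10 had a probe, and these 4 genes hold 8 of the 43595 probes tested: 5 for DNMT3B and 1 each for TET2, TET3 and TRIM28. DNMT1, DNMT3A, DNMT3L, TET1, UHRF1 and ZFP57 were not analysed here. The study does list ZFP57 among genes downregulated in parthenotes, without saying which probe read it. The rule used here may thus have missed a probe. The series compared blastocysts of New Zealand White rabbits at 6 days on 4 arrays with 2 colours. On each array a pool of parthenotes was labelled with Cy3 and a pool of in vivo fertilised embryos with Cy5. The parthenotes came from oocytes activated with electrical pulses followed by cycloheximide and 6-DMAP, transferred to the oviducts of recipient does and flushed from the uterus. The fertilised controls, untreated per the labels, came from does inseminated with pooled sperm. A parthenote thus carries maternal genome copies only, and each pool mixed RNA of whole blastocysts, so that fewer cells of a type and less RNA per cell cannot be told apart. No array had its dyes exchanged, so dye and group cannot be told apart for any single probe. Nothing in the labels ties a parthenote pool to the fertilised pool on its array. The 4 arrays lay on a single slide scanned together.

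DNMT3A and DNMT3B place methyl groups on unmethylated cytosines, and DNMT1, guided by UHRF1, copies them at each replication. TET enzymes oxidise the methyl group, which leads to its loss. At imprinted regions the methylated parental allele is kept through the genome-wide loss of methylation in the early embryo by ZFP57 and other KRAB zinc finger proteins, which recruit TRIM28 (KAP1) and, through it, the histone methyltransferase SETDB1 and DNA methyltransferases. De novo methylation returns around implantation, when DNMT3B transcripts are known to be abundant in the epiblast.

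The probes are shown because they set what each signal can see. The 5 DNMT3B probes are 60-base windows of the same stretch of transcript ENSOCUT00000017835, starting between bases 2405 and 2410, and share 55 bases. They are therefore repeated readings of nearly the same sequence and not 5 independent readings of the gene. In the brightest of them the capitals mark the 55 shared bases. Its position in the array files is chr4:6631227-6632562 on the minus strand, a span of 1336 bases, so the 60-base probe crosses at least 1 intron. The array files name no genome build.

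DNMT3B A_04_P059873: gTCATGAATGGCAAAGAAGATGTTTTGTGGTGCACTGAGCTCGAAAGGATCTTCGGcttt

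The TET2 and TET3 probes lie in related parts of the 2 transcripts. Shifted by 6 bases against each other they overlap by 54 bases, of which 40 (74.1%) are identical and given in capitals.

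TET2 A_04_P065222: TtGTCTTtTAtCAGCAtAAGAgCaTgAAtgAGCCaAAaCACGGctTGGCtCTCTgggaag

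TET3 A_04_P057302: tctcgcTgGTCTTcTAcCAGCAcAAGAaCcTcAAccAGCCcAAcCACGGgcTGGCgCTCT

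The TET2 probe covers bases 5527 to 5586 of ENSOCUT00000007098 (chr15:44367297-44367356, minus strand), and the TET3 probe bases 4732 to 4791 of ENSOCUT00000016641 (chr2:112411153-112411212, minus strand). Cross-hybridisation between them was not tested. The TRIM28 probe covers bases 2119 to 2178 of ENSOCUT00000016613 and has no position in the array files. It is printed in lower case, as it shares no marked bases with another member.

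TRIM28 A_04_P048382: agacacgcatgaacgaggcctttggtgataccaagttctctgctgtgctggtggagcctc

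DNMT3B, a de novo methyltransferase, was lower in parthenotes. At its brightest probe the processed signal, which is an intensity after background subtraction and dye correction, was 1309, 1224, 1186 and 1074 in the parthenote pools of arrays 1 to 4. In the fertilised pools it was 1443, 1520, 1381 and 1331. The lowest fertilised pool lay above the highest parthenote pool, so the groups did not overlap. The log2 ratios of parthenote over fertilised were -0.14, -0.31, -0.22 and -0.31, with a mean of -0.25 ± 0.08 (SD, n = 4). This corresponds to 84.3% of the fertilised level, with a 95% interval from 77.9 to 91.3%. Tested against 0 with limma, which shares the estimate of spread across probes, the adjusted p was 0.0338 (Benjamini-Hochberg over all probes). The call was small and close to the threshold. The adjusted p was 0.119 without array 2, 0.118 without array 3 and 0.132 without array 4 in limma, 0.0642 by the methods' t-test and 0.0511 with the channels unpaired. With normexp background correction and median centring of each array the mean was -0.77, where the median of all 26731 detected probes moved from -0.03 to -0.35.

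The 4 other DNMT3B probes gave the same reading. Their signals and those of the brightest probe ran from 942 to 1309 in the parthenote pools and from 1130 to 1520 in the fertilised pools. All 5 passed the threshold as lower, against 11.1% of all probes, with mean log2 ratios from -0.31 to -0.23 and adjusted p from 0.0214 to 0.0374 in limma. At 2 of the 5 probes, A_04_P059874 and A_04_P059876, the signals of the groups overlapped across arrays. All 20 single ratios were below 0 and ran from -0.39 to -0.14. Array 1 gave the smallest difference at every probe and array 2 the largest. The SD between probes within an array was between 0.021 and 0.049, less than the SD between arrays of any DNMT3B probe, which was between 0.059 and 0.093. The 5 probes share most of their bases and the same hybridisations, so their closeness adds no independent reading of the gene.

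**Figure D1:**
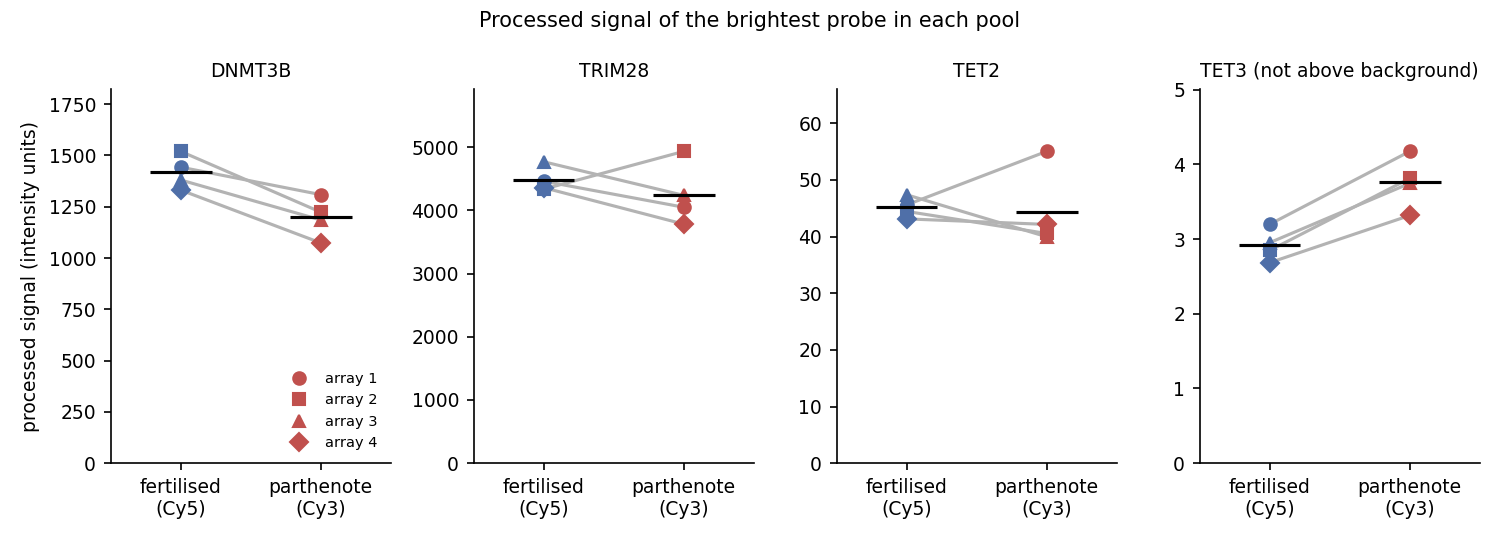
Processed signal (intensity units, linear axes from 0) of the brightest probe of each gene in the 4 fertilised (Cy5, blue) and 4 parthenote (Cy3, red) pools. Grey lines join the pools of an array and black bars are means. DNMT3B was lower on all 4 arrays, TRIM28 and TET2 went both ways, and TET3 was not well above background in any pool.

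TRIM28, the corepressor that KRAB zinc finger proteins recruit, did not pass the test. Its signals were 4049, 4934, 4237 and 3782 in the parthenote pools of arrays 1 to 4 and 4461, 4335, 4769 and 4359 in the fertilised pools. The parthenote pool of array 2 was the highest of all 8 and the other 3 were the lowest, so the groups overlapped. The log2 ratios were -0.14, 0.19, -0.17 and -0.20, with a mean of -0.08 ± 0.18 (SD, n = 4) and an adjusted p of 0.562 in limma. The 95% interval, 79.5 to 112% of the fertilised level, leaves room for a fall as large as that of DNMT3B. Without array 2 the mean was -0.17 with an adjusted p of 0.0639 in limma. With normexp correction and median centring it was -0.76, past the threshold.

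TET2, an enzyme that oxidises methylcytosine, was dim but measured. Both channels of all 4 arrays read its probe well above background. The signals were 55.0, 40.5, 40.0 and 42.1 in the parthenote pools and 45.6, 44.4, 47.4 and 43.1 in the fertilised pools. Array 1 held the highest parthenote pool, above every fertilised pool, while the other 3 parthenote pools lay below all of them. The log2 ratios were 0.27, -0.13, -0.25 and -0.03, with a mean of -0.03 ± 0.22 (SD, n = 4) and an adjusted p of 0.945 in limma. The sign of this small mean turned under normexp correction with loess (0.03) and without array 3 (0.04). Without array 1 the mean was -0.14 and did not pass (adjusted p = 0.243 in limma). The 95% interval ran from 79.0 to 121% of the fertilised level.

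TET3, known as the TET enzyme of the oocyte and zygote, was not well above background in either group on any array. At this probe the software set both channels to a surrogate and the ratio to 0, so no fold is given. The surrogates were between 3.32 and 4.17 in the parthenote pools and between 2.68 and 3.20 in the fertilised pools. Their ratio passed the threshold (0.36 on the log2 scale, adjusted p = 0.00543 in limma) although neither side is a measured level.

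**Figure D2:**
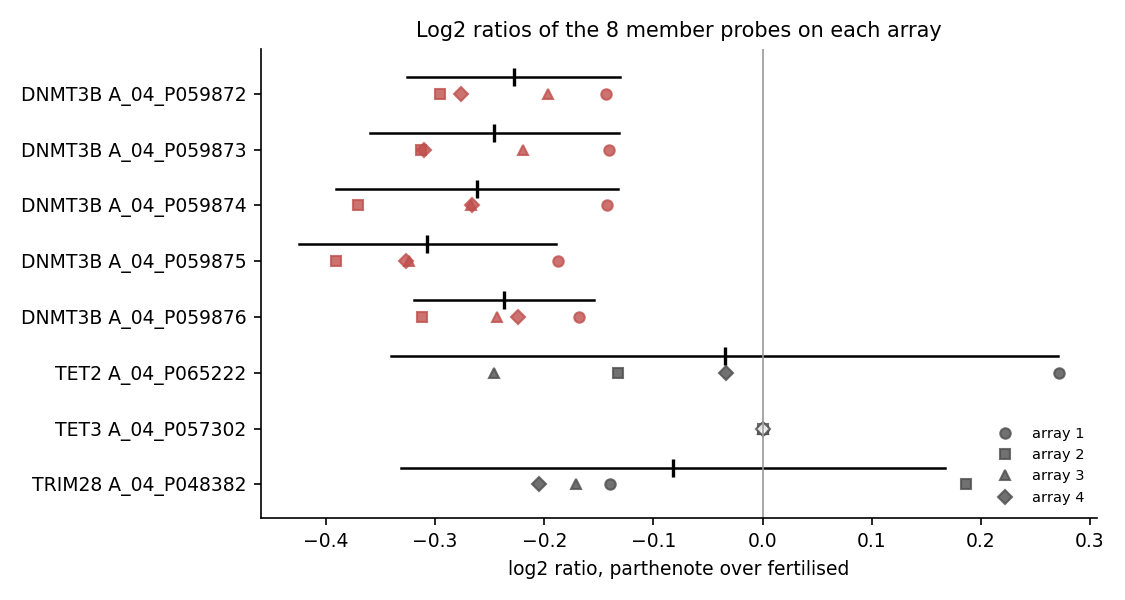
Log2 ratio of parthenote over fertilised for the 8 probes, with 1 marker for each array. Black bars are means with 95% intervals from limma, red marks probes past the threshold, and open symbols mark TET3, whose ratio was set to 0. All 20 DNMT3B points lie between -0.39 and -0.14, while the intervals of TET2 and TRIM28 span 0.

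Counted by the brightest probe, 1 of the 4 genes (25.0%) passed the threshold, DNMT3B, which was lower. Among all 9752 named genes 24.1% passed, 12.3% lower and 11.8% higher, and among all probes 20.6% passed, with 9.53% higher. The share of the 4 genes is thus at the background, though TET3 had no measured level and could not pass. The 3 members well above background in all pools had a median log2 ratio of -0.08. Pools of the groups did not overlap, with parthenotes lower, for 12.6% of all genes. The median log2 ratio of the 4 genes was -0.06, against 0 for all genes tested, where many ratios are set to 0, and -0.03 for the detected probes. Under normexp correction with median centring the 4 genes had a median of -0.38, against -0.35 for the detected probes.

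The pathway around these genes was followed in 5 lists of known partners. Of 87 listed genes 57 had a probe. Of these, 11 were lower, 4 were higher and 42 did not pass the threshold, so that 26.3% passed, against 24.1% of all genes. The counts depend on the scaling and on single arrays: 37 were lower and 3 higher under normexp correction with median centring, 15 lower and 7 higher by the ratio of processed signals, and 2 lower and 2 higher without array 3. Of all 43595 probes, 16804 were lower and 14806 higher under median centring. By the ratio of processed signals 7487 were lower and 13912 higher, and without array 3 1539 and 1097. The median centring counts of each list below stand beside that share of all probes. The 3 higher genes under median centring were APOBEC1, KMT2A and MAT1A, which were not well above background in any pool and are other genes than the 4 called higher in the deposited scaling. Their ratios in the deposited scaling were not set to 0 throughout as that of TET3 was (KMT2A -0.32, MAT1A -0.13, the APOBEC1 probes 0.22 to 0.26). They rest on signals not well above background. Without array 2 in limma, 0 were lower and 1 was higher (15 and 6 at an unadjusted p under 0.05). The median log2 ratio of the 57 genes was -0.07, against 0 for all genes and -0.03 for the detected probes. It was -0.03 without array 3 and -0.04 without array 4, where the detected probes had -0.03 in both. All 15 calls were lost without array 2, and 14, 11 and 7 of them without arrays 4, 3 and 1. Those of AHCYL1, CDCA7, CTCF, MTHFD1 and RIF1 were lost whichever array was left out. No list of partners is therefore called from these counts, and the values of its genes follow by role.

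Among partners of maintenance and readers of methylated DNA, 10 of 15 listed genes had a probe, 3 were lower and 1 was higher, with a median of -0.13. With an array left out between 0 and 1 were lower and between 0 and 1 higher, and under normexp correction with median centring 6 were lower, with a median of -0.42. CDCA7, which activates the remodeller HELLS needed for methylation of heterochromatin, had the largest difference of the list. Its signals were 153, 252, 176 and 180 in the parthenote pools and 295, 313, 303 and 267 in the fertilised pools. The parthenote pool of array 2 came close to the fertilised range but the groups did not overlap. The mean log2 ratio was -0.65 ± 0.28 (SD, n = 4), with an adjusted p of 0.0495 in limma, a call lost whichever array was left out. CTCF, an insulator protein that binds the unmethylated allele of some imprinting control regions, fell by 0.25 ± 0.06 on the log2 scale (adjusted p = 0.0184 in limma). USP7, a deubiquitinase that stabilises DNMT1 and UHRF1, fell by 0.25 ± 0.08 (adjusted p = 0.0300 in limma). Of the 3 USP7 probes 2 passed, and the call was lost by the methods' t-test and without array 2, 3 or 4. LIG1, the ligase of replicating DNA whose methylated tail binds UHRF1, was higher by 0.36 ± 0.09 on the log2 scale (adjusted p = 0.0214 in limma), a direction that turned to -0.36 under normexp correction with median centring. The 6 genes that did not pass lay between -0.41 ± 0.19 for MBD1, a reader of methylated CpGs, and 0.45 ± 0.23 for ZBTB33 (Kaiso). UHRF2, the paralogue of UHRF1, was among them at -0.07 ± 0.14.

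Of 23 listed genes for imprint protection and KRAB zinc finger heterochromatin, 14 had a probe, 3 were lower and 0 were higher, with a median of -0.10. With an array left out between 0 and 1 were lower and 0 higher. At an unadjusted p under 0.05 in limma 5 were lower and 1 was higher, and at the adjusted threshold 12 were lower under normexp correction with median centring and 1 was higher under loess with repaired backgrounds. The largest difference was at a probe assigned to KHDC3L, a component of the maternal subcortical complex of the oocyte. The table of rabbit genes names its identifier KHDC3L while the array's own description calls it an oocyte expressed protein homologue, so which member of this gene cluster it reads is uncertain. Its signals were 4841, 4373, 5596 and 4462 in the parthenote pools and 11580, 10896, 10361 and 12248 in the fertilised pools. The groups lay far apart, with parthenotes at 42.6% of the fertilised level and a mean log2 ratio of -1.23 ± 0.24 (SD, n = 4, adjusted p = 0.0148 in limma). With an array left out, this call held only without array 3. SETDB1, the H3K9 methyltransferase that TRIM28 brings to imprinted regions, had signals of 137, 167, 146 and 132 in the parthenote pools and 238, 216, 209 and 195 in the fertilised pools. These did not overlap, and the mean log2 ratio was -0.56 ± 0.17 (SD, n = 4, adjusted p = 0.0297 in limma). RIF1, which shapes replication timing and heterochromatin, had signals of 219, 220.5, 161 and 172 in the parthenote pools against 269, 294, 277 and 248 in the fertilised pools. Its mean log2 ratio was -0.51 ± 0.21 (SD, n = 4, adjusted p = 0.0473 in limma), but only 1 of its 3 probes passed and the mean of all 3 lost the call. The 11 genes that did not pass, among them ZNF445, a KRAB zinc finger protein that protects imprints, at -0.10 ± 0.15, lay between -0.30 and 0.20 at their brightest probes. Probe means ran from -0.12 to 0.17 for ZNF445, from -0.81 to 0.01 for SUV39H2 and from -0.40 to -0.05 for ARID4A, with 0 probes called.

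**Figure D3:**
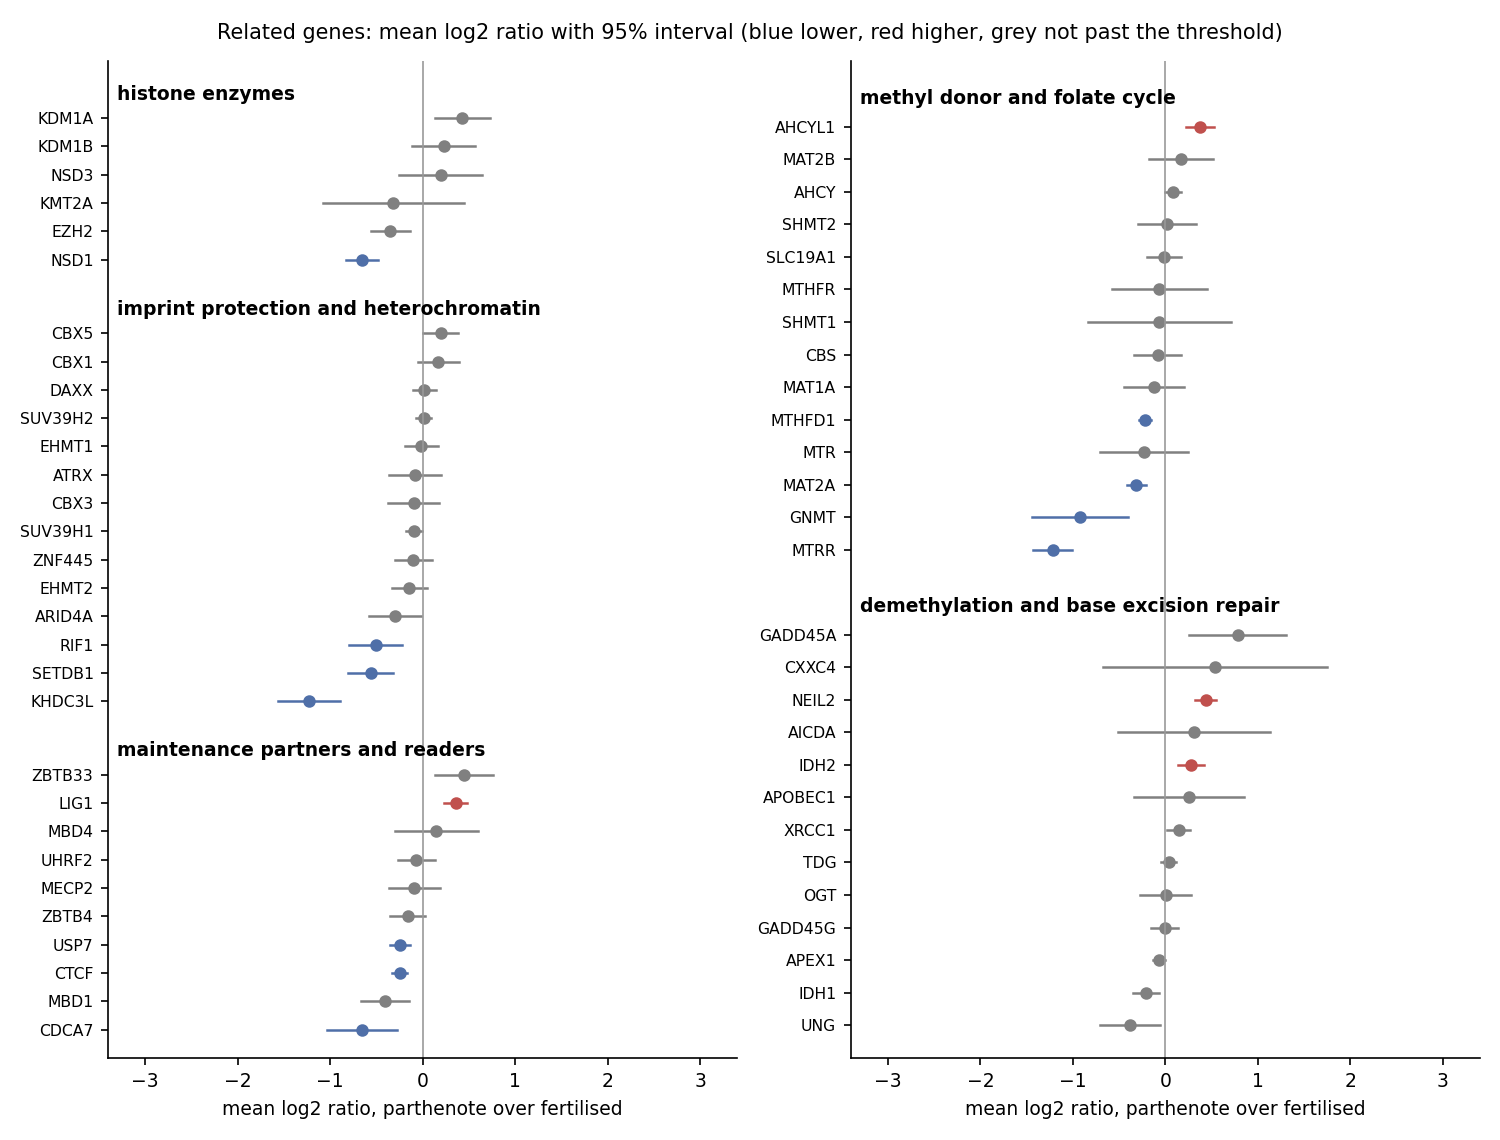
Mean log2 ratio of parthenote over fertilised with its 95% interval from limma for the brightest probe of the 57 related genes, grouped in 5 lists. Blue genes were lower, red genes higher and grey genes did not pass an adjusted p of 0.05. The grey APOBEC1, KMT2A and MAT1A were not well above background in any pool. KHDC3L at -1.23 and MTRR at -1.22 lie farthest to the left, and the red LIG1, IDH2 and AHCYL1 turned to negative values under normexp correction with median centring.

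Among histone enzymes that guide de novo methylation, 6 of 12 listed genes had a probe and NSD1 alone passed the threshold, with a list median of -0.06 (0.20 over the 5 genes well above background in all pools). Under normexp correction with median centring 2 were lower. NSD1 places the dimethyl mark on H3K36 that DNMT3A is known to follow. Its signals were 977, 815, 762 and 709 in the parthenote pools and 1389, 1241, 1316 and 1167 in the fertilised pools. The groups did not overlap, parthenotes had 63.5% of the fertilised level, and the mean log2 ratio was -0.66 ± 0.12 (SD, n = 4, adjusted p = 0.0142 in limma). The 2 NSD1 probes gave means of -0.68 and -0.66. EZH2, the H3K27 methyltransferase, was at -0.35 ± 0.15 with an adjusted p of 0.0519 in limma, and 1 of its 2 probes passed the threshold. KDM1A and KDM1B, demethylases that clear H3K4 marks, were at 0.43 ± 0.21 and 0.23 ± 0.25 and did not pass.

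In demethylation and base excision repair, 13 of 21 listed genes had a probe, 2 were higher and 0 were lower, with a median of 0.15 (0.04 over the 11 genes well above background in all pools). At an unadjusted p under 0.05 in limma 4 were higher and 3 were lower, and at the adjusted threshold 6 were lower under normexp correction with median centring, with a median of -0.21. NEIL2, a glycosylase that excises oxidised bases, was higher by 0.43 ± 0.08 on the log2 scale (adjusted p = 0.0134 in limma), with signals between 83.6 and 104 in the parthenote pools and between 61.2 and 76.3 in the fertilised pools. Under normexp correction with median centring it was at 0.07 and lost the call. IDH2, which makes the 2-oxoglutarate that TET enzymes need, was higher by 0.28 ± 0.10 (adjusted p = 0.0410 in limma), a direction that turned to -0.39 under normexp correction with median centring. IDH1, which makes the same cofactor, was at -0.21 ± 0.10, below 0 on all 4 arrays, and did not pass at its brightest probe (adjusted p = 0.0669 in limma), while 2 of its 4 probes were called lower. TDG, the glycosylase that removes the products of TET oxidation, was at 0.04 ± 0.06 and did not pass (adjusted p = 0.446 in limma). GADD45A had the largest mean of the list, 0.78 ± 0.38, and did not pass (adjusted p = 0.0650 in limma).

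In the methyl donor and folate cycle, 14 of 16 listed genes had a probe, 4 were lower and 1 was higher, with a median of -0.07. With an array left out between 0 and 3 were lower and 0 higher, and under normexp correction with median centring 11 were lower, with a median of -0.60. MTRR, which reactivates methionine synthase, had signals of 73.6, 75.8, 73.3 and 54.2 in the parthenote pools and 168, 168, 157 and 147 in the fertilised pools. Parthenotes had 43.0% of the fertilised level, with a mean log2 ratio of -1.22 ± 0.15 (SD, n = 4, adjusted p = 0.00876 in limma). All 5 MTRR probes passed, with means from -1.22 to -0.71, and leaving out an array lost the call only for array 2 (adjusted p = 0.0508 in limma). GNMT, which consumes S-adenosylmethionine by methylating glycine, had signals of 2979, 2267, 2064 and 2109 in the parthenote pools and 3807, 4682, 4585 and 4615 in the fertilised pools. Its log2 ratio was -0.35 on array 1 and between -1.15 and -1.05 on the others, with a mean of -0.92 ± 0.38 (SD, n = 4, adjusted p = 0.0479 in limma). MAT2A, the enzyme that makes S-adenosylmethionine in most tissues, fell by 0.31 ± 0.07 on the log2 scale (adjusted p = 0.0199 in limma), and MTHFD1, which interconverts folates, fell by 0.22 ± 0.05 (adjusted p = 0.0178 in limma). AHCYL1 was higher by 0.38 ± 0.11 (adjusted p = 0.0279 in limma), a direction that turned to -0.19 under normexp correction with median centring. It resembles S-adenosylhomocysteine hydrolase but is known as a regulator of calcium channels, and the hydrolase itself, AHCY, was at 0.08 ± 0.06 (adjusted p = 0.151 in limma).

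Maintenance methylation is tied to DNA replication, so S phase genes were set beside these lists. Of 15 listed, 13 had a probe, 3 were lower and 2 were higher, with a median of -0.05. With an array left out between 0 and 3 were lower and between 0 and 1 higher, and under normexp correction with median centring 12 were lower. CCNE1, CDC6 and MCM6, which act in the start of replication, were lower, with log2 ratios between -0.29 and -0.23. RRM1 and TYMS, which supply deoxynucleotides, were at 0.21 and 0.34 but at -0.44 and -0.31 under normexp correction with median centring.

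The makeup of the blastocysts was followed with markers of its lineages. The pools carried the transcripts of a blastocyst: POU5F1, the pluripotency factor, had signals between 8729 and 9914 in the parthenote pools and between 7569.5 and 8420 in the fertilised pools. POU5F1 was higher by 0.21 ± 0.03 on the log2 scale (adjusted p = 0.0118 in limma), a direction that turned to -0.52 under normexp correction with median centring. Of 5 measured epiblast markers only POU5F1 passed, with a list median of -0.04, while DPPA5 was at 0.31 ± 0.22 and LIN28A at -0.22 ± 0.15. Under normexp correction with median centring 4 epiblast markers were lower and 0 higher, with a median of -0.40. There DPPA5 was at -0.33 and LIN28A at -0.60. Of 7 trophectoderm markers KRT8, a keratin of the outer layer, was higher by 0.58 ± 0.22 (adjusted p = 0.0408 in limma, -0.21 under normexp correction with median centring) and GATA2 was lower at -0.64 ± 0.26 (adjusted p = 0.0451 in limma). The trophectoderm median was -0.17, but 0.03 under normexp correction with loess and -0.48 under normexp correction with median centring. Under median centring 4 of these markers were lower and 1 was higher, ELF5, which was not well above background in either group. GATA3 was at 0.12 ± 0.12 (-0.48 under median centring) and TFAP2A at -0.26 ± 0.14 (-0.75 under median centring). Of the primitive endoderm markers only COL4A1 and GATA4 had a probe, at 0.35 ± 0.12 (adjusted p = 0.0347 in limma, -0.24 under normexp correction with median centring) and -0.34 ± 0.20. Both passed as lower under that alternative. With an array left out, the calls of POU5F1, KRT8 and COL4A1 held only without array 1, and that of GATA2 was lost whichever array was left out. The part of lineage proportions in the DNMT3B difference was not tested.

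Markers of ciliated and secretory epithelium, cell types of the oviduct and uterus, had larger median ratios than the methylation genes in the deposited scaling. Single markers differed: WFDC2 (0.01) lay nearer to 0 than DNMT3B, and LCN2 was at -0.57 ± 0.33 without passing. Under normexp correction with median centring the ciliated and secretory medians were 0.59 and 1.42, beside -0.77 for DNMT3B and -0.76 for TRIM28. There 8 of 8 ciliated markers were called higher, of which FOXJ1 was not well above background in any pool. Of the secretory markers 3 were higher and 1 lower there. Of all 43595 probes, 14806 were higher and 16804 lower under that alternative. With loess in place of centring the ciliated and secretory medians were 0.58 and 1.63. Of 8 ciliated cell markers with a probe 4 were higher in parthenotes, with a median of 2.05, and between 0 and 3 with an array left out. Of the 4, RSPH1 was well above background in 0 of 4 fertilised pools and DNAI1 in 1, so their ratios are partly against background. The 4 ciliated markers well above background in all pools had a median of 1.79. The summed signal of the ciliated list was 2668, 1455, 3676 and 2421 in the parthenote pools against 619, 534, 626 and 483 in the fertilised pools. CAPS, whose probe had the highest signal of the list, was higher by 2.42 ± 0.42 on the log2 scale (adjusted p = 0.0125 in limma), followed by DYNLRB2, a dynein chain, at 1.98 ± 0.54 (adjusted p = 0.0244 in limma) and the axonemal SPAG6 at 1.08 ± 0.56, which did not pass. The 5 SPAG6 probes disagreed in size, with means from 1.08 at this brightest one to 5.95, and 2 of them were called higher. FOXJ1, the factor that defines motile ciliated cells, was not well above background in either group. Of 5 secretory epithelium markers 3 were higher, with a median of 2.75, and between 1 and 3 with an array left out. OVGP1, the oviduct glycoprotein, had signals of 3677, 3014, 19178 and 9412 in the parthenote pools and 238, 274, 1273 and 533 in the fertilised pools, a 14.6-fold difference (log2 3.87 ± 0.29, adjusted p = 0.00513 in limma). SCGB1A1 (uteroglobin) was at 2.75 ± 0.45 (adjusted p = 0.0119 in limma), while WFDC2, whose probe had the highest signal of the list, ran from -1.52 to 0.71 over the arrays and did not pass. The summed signal of the secretory list was 8788, 14971, 33252 and 19456 in the parthenote pools and 5525, 6694, 8276 and 4592 in the fertilised pools.

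Of 7 leukocyte markers 4 were higher in parthenotes, with a median of 0.60. ITGB2 was at 0.60 ± 0.11, CD14 at 0.92 ± 0.15 and CD68 at 0.45 ± 0.18, with adjusted p between 0.0122 and 0.0434 in limma. Under normexp correction with median centring ITGB2 was at 0.01 and CD68 at 0.09, both no longer past the threshold. CD14 and CD48, the remaining called marker, were at 0.29 and 0.68 there and still passed, and the list median was 0.32. Of 5 leukocyte markers called higher there, PTPRC and CD3E were not well above background in any pool, so 3 of the calls rest on a level measured in at least some pools. Between 0 and 4 markers were called with an array left out. The summed leukocyte signal was between 827 and 993 in the parthenote pools and between 489 and 547 in the fertilised pools. The part of these epithelial or leukocyte transcripts in the differences of the methylation genes was not tested.

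**Figure D4:**
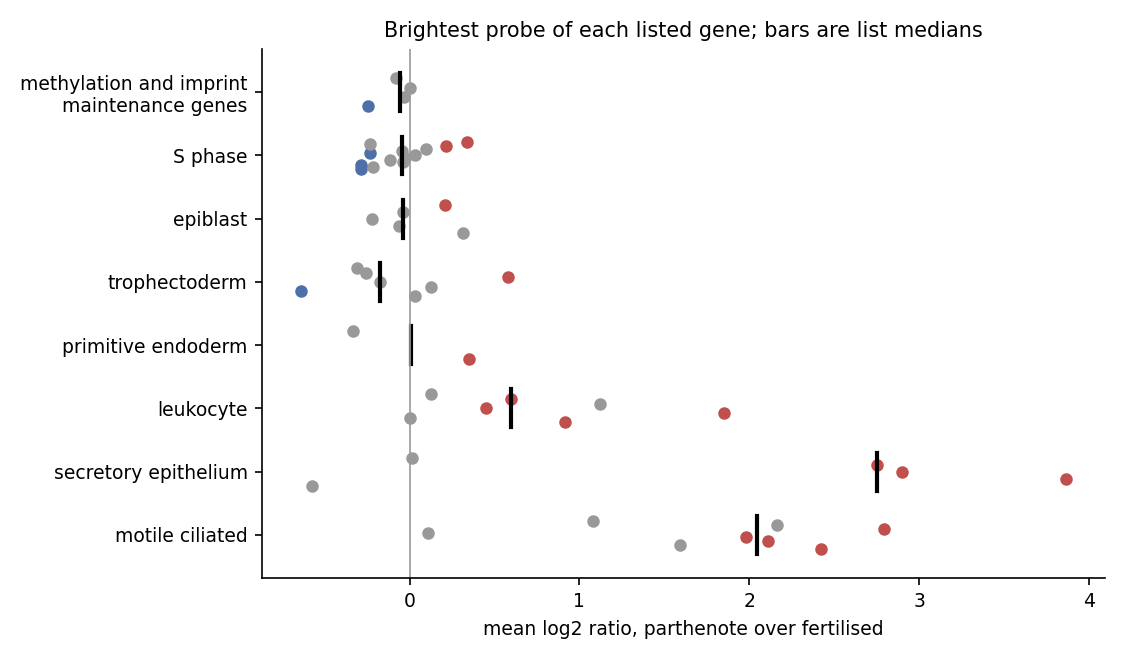
Mean log2 ratio of parthenote over fertilised for the brightest probe of each gene, in the methylation and imprint maintenance genes and in 7 other lists. Black bars are list medians, red genes were higher, blue genes lower and grey genes not past the threshold. The methylation genes lie within 0.25 of 0, beside ciliated and secretory medians of 2.05 and 2.75. TET3 is drawn at 0, a ratio set by the software. TET3, FOXJ1, ELF5, PTPRC and CD3E were not well above background in any pool but are drawn and counted in the bars. Under normexp correction with median centring these medians were 0.59 and 1.42, DNMT3B was at -0.77 and TRIM28 at -0.76, and the red points of the S phase, epiblast, trophectoderm and primitive endoderm lists turned negative.

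The genes whose log2 signals over the 8 channels followed DNMT3B most closely, of 9731 compared, were PTCD1 (Pearson r = 0.989), PPP2R5A (r = 0.985) and NUDT7 (r = 0.985). These correlations are descriptions only, since the 8 channels share arrays and dyes and hold 2 groups. The mean log2 ratios of the 3 genes were -0.23 ± 0.06, -0.36 ± 0.12 and -0.20 ± 0.07 (SD, n = 4), near that of DNMT3B at -0.25 ± 0.08.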

How the data were processed

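The authors extracted the scanned arrays with Agilent Feature Extraction 10.10.1.1. For every spot the deposited log10 ratio is Cy5 over Cy3, turned here into log2 of parthenote over fertilised. The processed intensity in the deposited files is background-subtracted and dye-normalised, and the mean and local background intensities are as scanned. The deposited flags, listed with the unit other, say whether a spot is above background, saturated or an outlier. The series value table of the authors repeats these log10 ratios with opposite sign (column medians 0), and each column matched a sample. The authors' methods name a t-test with Benjamini-Hochberg adjustment.

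Control spots were dropped, outlier spots (26 to 48 of 43803 per array) treated as missing, and repeated spots averaged. Well above background were 25805 to 26339 spots per array in Cy3 and 27508 to 27835 in Cy5. Probes measured on 3 or more arrays were tested against 0 with limma 3.58.1 in R 4.3.3 (lmFit, eBayes, two-sided), with a threshold of 0.05 on the adjusted p. The number of arrays limits the precision. Tables and plots were made in Python 3.11.15 (pandas 2.3.3, numpy 2.4.6, matplotlib 3.10.9), with data.table in R. The fit was tested on simulated data. Of 50 changes planted at each size among 43527 probes, the rest unchanged, it recovered 2 at 1.2-fold, 7 at 1.5-fold and 19 at 2-fold. The adjusted threshold depends on how many probes change, and 8996 passed in the data. These shares therefore do not give the power of the fit to the data. With 4 arrays, a gene that did not pass is not shown to be unchanged.

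Symbols were found for 22016 of 43603 probes through accessions, gene identifiers, descriptions and gene names, with a table of rabbit genes (mOryCun1.1) used for names only. The brightest probe stands for a gene. The genes and lists were chosen with earlier results of these data known. Named were all members with a probe, related genes below the adjusted threshold whose ratios had 1 sign throughout (in full from 0.5 on the log2 scale), the 3 brightest markers of each cell type list and the 3 genes most like DNMT3B. Other genes named without passing were chosen after their values were seen. The methods state that the pools of a group are independent. The ratio pairs the pools of an array, since deviations from the group means correlated by 0.60, 0.63, 0.62 and 0.65 within arrays 1 to 4. Alternatives were normexp (offset 50) followed by loess, by median centring or by loess after background repair, the ratio of processed signals, the value table, a filter on dim probes, marked spots kept, the methods' t-test, no pairing, an intensity trend, each array left out, and the mean of a gene's probes.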

Additional observations from a re-analysis of the deposited data

Results flagged for a closer look

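In 5 of 35 groups of 4 values tested, 1 value lay far from the other 3, where chance alone gives about 1 in 20 for independent groups. These groups share the same 4 arrays and are not independent, so an excess over chance was not tested. The log2 ratio of TRIM28 was 0.19 on array 2, against values from -0.20 to -0.14 on the others. The processed signal of TET2 in the parthenote pool of array 1 was 55.0, against 40.0 to 42.1 in the other parthenote pools. The log2 ratio of GNMT on array 1 was -0.35, against -1.15 to -1.05. The log2 ratio of CAPS on array 2 was 1.80, against 2.54 to 2.68, and that of COL4A1 on array 1 was 0.17, against 0.39 to 0.43.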

How the results depend on the processing

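The number of probes past an adjusted p of 0.05 in limma was 8996. It was 31610 with normexp correction and median centring, 21399 by the ratio of processed signals, 4435 by the methods' t-test, 16358 without the replicate block that pairs the pools of an array, and between 1239 and 5736 with an array left out. Of the called probes 53.8% were lower in parthenotes, against 35.0% by the ratio of processed signals and 32.0% without the replicate block.

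DNMT3B stayed at -0.25 but lost the call by the methods' t-test and without the replicate block, and ran from -0.28 to -0.22 with an array left out. TRIM28 was -0.76 under normexp correction with median centring. TET3 was 0.33 under that alternative and 0.36 by the ratio of processed signals and without the replicate block, where surrogates take part in the ratio. With normexp correction and median centring 2 members were lower, 1 was higher (TET3, not measured) and their median was -0.38. By the t-test and without the replicate block 0 members were lower (1 at an unadjusted p under 0.05 in both), and with an array left out between 0 and 1. By the ratio of processed signals and without the replicate block 1 member, TET3, was higher.

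Of the related genes, 37 were lower under normexp correction with median centring and 6 by the t-test, and between 0 and 6 with an array left out. There were 9 higher under normexp, loess and repaired backgrounds, 7 by the ratio of processed signals and with the filter on dim probes, 2 by the t-test, and between 0 and 3 with an array left out. Their median was -0.41 under median centring and -0.018 under loess with repaired backgrounds. Counting a turn of sign only where the value passed the threshold with or without the alternative, median centring after normexp reversed 11 of 41 genes: AHCYL1 to -0.19, IDH2 to -0.39, LIG1 to -0.36, RRM1 to -0.44, TYMS to -0.31, COL4A1 to -0.24, DPPA5 to -0.33, GATA3 to -0.48, KRT8 to -0.21, POU5F1 to -0.52 and WFDC2 to -0.67. It also moved the median of detected probes to -0.35. No other alternative reversed a gene in this sense, though means near 0, such as TET2 and WFDC2, changed sign without passing. The other causes were not tested. The value table repeats the same ratios, and the filter on dim probes left out TET3, which has no value there.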
